A study of Mus musculus with 16 samples.

Results

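Ribosome footprints were compared with cytoplasmic input RNA in the mouse macrophage-like cell line RAW264.7 after 16 h in 100 ng/ml lipopolysaccharide (LPS, a cell wall component of Gram-negative bacteria). The genes described are those with at least 50 counts in the 16 h input library, which were 8552 of the 13832 genes of the table (61.8%). They held 99.3% of all footprints and 99.3% of all input reads at 16 h. The study sampled untreated cells and cells after 15, 30, 45, 60, 75 and 90 min and 16 h of LPS, and each of the 8 time points gave 1 footprint library and 1 input library from the same lysate. The footprints were RNase I-resistant fragments recovered from monosomes on a sucrose gradient, and the input was cytoplasmic RNA broken by alkaline hydrolysis. No group had a replicate. All cells were a single established line, cycloheximide was present during washing and lysis, and no untreated culture was sampled at 16 h, so effects of LPS and of culture time cannot be told apart.

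A ribosome protects a short piece of the mRNA it is translating, so the footprints of a gene count ribosomes on its mRNA, and the input counts the mRNA itself. The ratio of footprints to input is here called density. It is known to differ between mRNAs because of how often ribosomes start, how fast they elongate and how long the coding region is. In activated macrophages, translation is a known layer of control: interferon and cytokine mRNAs, ferritin mRNAs and mRNAs with upstream open reading frames (short reading frames ahead of the main start codon) are textbook cases.

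Every library held 6702930 to 6702932 counts, so the original sequencing depth is unknown. Density is given relative to the median member, whose raw ratio was 0.935 footprints per input count, and 95% intervals are exact binomial intervals that cover counting error only. With 1 library per group, the comparison of footprints with input at 16 h has no replicate check and no p-value. Macrophage markers were present, with 18 of 20 listed genes among the members and 0.968% of footprints against 0.753% of input. Of the other cell types, fibroblast and epithelial markers had 0 members and lymphocyte markers had 1 (Lck, with 59 footprints and 88 input reads). Osteoclast markers had 2 (Dcstamp and Nfatc1). Counts were given for only 5 of 10 listed fibroblast, 2 of 8 epithelial, 5 of 10 lymphocyte and 7 of 8 osteoclast markers. For macrophage markers it was 19 of 20, so the check on other cell types was partial. Fibroblast and epithelial markers held 0.00107% and 0% of footprints, lymphocyte markers 0.00134% and osteoclast markers 0.00733%.

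The sequences of regulatory elements in the 5′ untranslated regions of members with few footprints show what these mRNAs carry. Ferritin mRNAs hold an iron-responsive element, a hairpin that iron regulatory proteins bind when iron is scarce and that then blocks initiation. The hairpins below were read from GENCODE transcripts (GRCm38, mm10). Capitals mark the 6-base loop of both ferritin chains:
Fth1, chr19:9982734-9982758, plus strand: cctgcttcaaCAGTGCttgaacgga
Ftl1, chr7:45459781-45459805, minus strand: cttgcttcaaCAGTGTttgaacgga

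A hairpin of this form (a C, 5 bases and a loop of CAGTG with 1 further base, with 5 bases after the loop that pair with the 5 bases before it, sense strand only, G-T pairs allowed) was found in 10 of 8267 members with an annotated 5′ untranslated region (0.121%). A match is a description of the letters and not of a working element.

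Short upstream reading frames found in the annotated transcripts are shown for 3 members whose translation is known to be controlled by upstream frames. Each is a frame that the search found and need not be the one that blocks the main frame: in Atf4 the short early frame is known to help ribosomes restart, and a later one to block. Capitals mark the start and stop codons. Atf4 encodes a stress transcription factor, Odc1 ornithine decarboxylase of polyamine synthesis, and Sat1 the acetyltransferase that starts polyamine breakdown:
Atf4, chr15:80255582-80255593, plus strand: ATGgcgtatTAG
Odc1, chr12:17544921-17544947, plus strand: ATGacgacgtgctcggcgtataagTAG
Sat1, chrX:155216271-155216285, minus strand: ATGgtgccagccTGA

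The start codons of members on both sides of the median are shown with 9 bases before and 1 base after them, with ATG in capitals. Irf7, Slfn4 and Fth1 lay far below the median. Odc1 had a log2 density of -1.37, Spp1 of 1.14 and Ccl3 of 1.70, which are not the extremes of the range:
Irf7, chr7:141265633-141265645, minus strand: gacggagcaATGg
Slfn4, chr11:83185301-83185313, plus strand: gaaggagagATGg
Fth1, chr19:9982861-9982873, plus strand: gccgccaccATGa
Odc1, chr12:17547290-17547302, plus strand: tcgagaaccATGa
Spp1, chr5:104436380-104436392, plus strand: actacgaccATGa
Ccl3, chr11:83649274-83649286, minus strand: ctcaacatcATGa

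All 6 had a purine 3 bases before the start codon, on either side of the median, as did 87.7% of 8264 members with the needed annotation. With a share that high, 6 genes cannot show whether this base goes with density.

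Footprints followed input closely for most members. Across the 8552 genes Pearson's r of the log2 counts was 0.87 and Spearman's rho 0.86, a description over genes of 2 libraries, which are not independent replicates. The central 50% of genes lay between -0.63 and 0.49 on the log2 density scale, and 98% between -2.72 and 1.76. At least 2-fold above the median were 654 genes (7.65%), and at least 2-fold below it were 1301 (15.2%). At 4-fold the counts were 45 above and 241 below, so the range was wider on the side with few footprints. The 21 genes at exactly 50 input counts, just inside the limit, had a median of 44 footprints, and the 25 genes at 49, just outside it, had a median of 42. Of the 5280 genes under the limit, 219 had at least 50 footprints and 1605 had no count in either library.

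**Figure D1:**
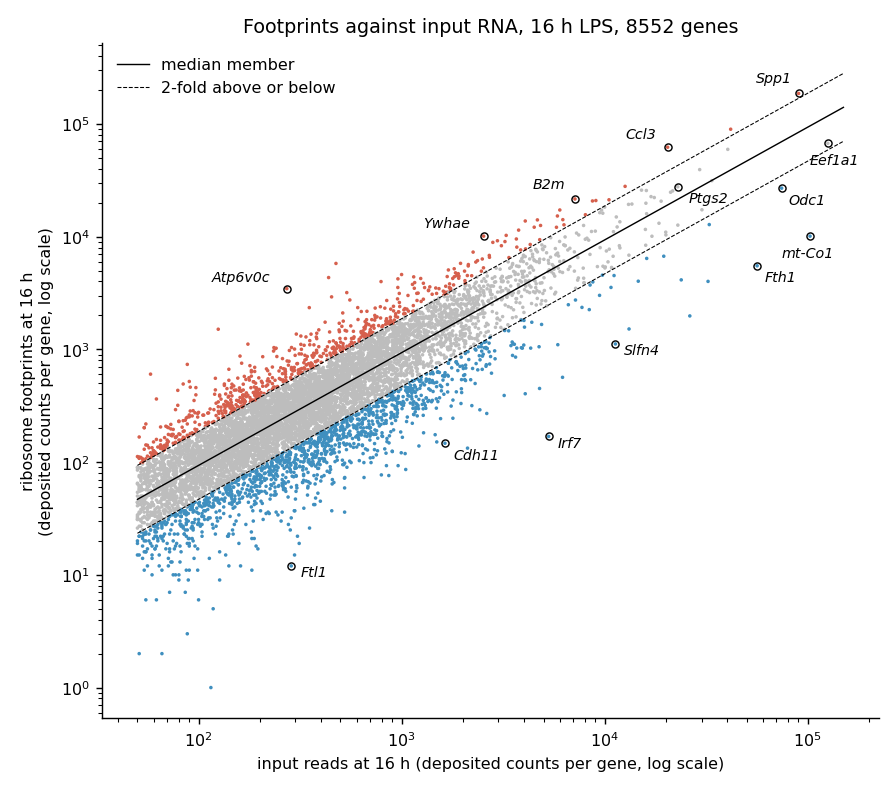
Footprint counts (vertical axis, log scale) against input counts (horizontal axis, log scale) at 16 h for 8552 genes, 1 point per gene. The solid line is the median ratio and the dashed lines are 2-fold above and below it; red genes lie at least 2-fold above and blue genes at least 2-fold below, and circled genes are named in the text.

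Effector mRNAs took a larger share of the ribosomes than of the input. Cytokines, chemokines, interferon-stimulated genes and late effectors of macrophage activation together held 5.35% of footprints (5.33 to 5.36) and 3.89% of input (3.88 to 3.91) at 16 h. Their share of footprints was 0.245% in untreated cells, 0.267% at 15 min, 0.413% at 30 min, 0.622% at 45 min, 0.653% at 60 min, 0.985% at 75 min, 1.34% at 90 min and 5.35% at 16 h. Their share of input at the same times was 0.237%, 0.255%, 0.384%, 0.533%, 0.565%, 0.711%, 0.941% and 3.89%. The footprint share of the 4 lists together exceeded their input share at all 8 times. The footprint share was 1.03 times the input share in untreated cells, 1.43 times at 90 min and 1.37 times at 16 h. The lists differed. Interferon-stimulated genes held less of the footprints than of the input at each time before 16 h (0.0862% against 0.121% in untreated cells). So did cytokines in untreated cells and at 15 and 60 min, and late effectors at 30 min. Chemokines held more of the footprints at each time. Of the 100 members in these lists, 79 lay above the median member. At least 2-fold above were 12 of the 100, beside 7.65% of all members, and at least 2-fold below were 5, beside 15.2%. The median density of the 100 was 1.33-fold above that of all members. In bulk lysates, more cells with an mRNA and more of it per cell cannot be told apart.

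Chemokines, which attract leukocytes, stood highest among these lists. They held 2.04% of footprints (2.03 to 2.05) and 1.01% of input (1.00 to 1.02), and 8 of 9 members lay above the median. At least 2-fold above it were 5 (55.6%), beside 7.65% of all members. Coding regions of the 9 were 276 to 741 nucleotides long. Of all members with coding regions of 114 to 774 nucleotides, 25.5% lay at least 2-fold above. Ccl3, a chemokine made by macrophages, had 62142 footprints against 20426 input reads, 3.25-fold above the median (3.20 to 3.31). Ccl4, its close relative, had 27934 footprints against 12612 input reads, 2.37-fold above (2.32 to 2.42). Ccl7, Cxcl10 and Ccl5 were 2.29-fold, 2.15-fold and 2.01-fold above the median. Ccl2, the main attractant of monocytes, had 16316 footprints against 9457 input reads, 1.85-fold above, and Cxcl2, which attracts neutrophils, was 1.59-fold above. Ccl9 had similar counts in both materials, 20627 footprints and 18977 input reads, and lay 1.16-fold above the median. Cxcl16, made as a membrane protein, was the one member below the median, with 135 footprints and 215 input reads (1.49-fold below, 1.20 to 1.86).

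Cytokines were closer to the median. They held 0.351% of footprints and 0.288% of input, with 12 of 16 members above the median and Il23a the only one at least 2-fold above it (150 footprints, 77 input reads). Il1b, the secreted fever-inducing interleukin, had 6236 footprints and 4488 input reads, 1.49-fold above the median (1.43 to 1.54). Il6 had 1519 footprints and 968 input reads at 16 h, against 0 footprints and 0 input reads in untreated cells, and lay 1.68-fold above. Csf3, the granulocyte growth factor, had 4393 footprints and 3378 input reads and lay 1.39-fold above. Il1rn and Il18 were 1.60-fold and 1.57-fold above. Tnf, the early inflammatory cytokine, had 4039 footprints and 4541 input reads, 1.05-fold below the median (1.01 to 1.10). Il27, Vegfa and Gdf15 lay 1.40-fold, 1.36-fold and 1.14-fold below, and the interval of Gdf15, from 41 footprints and 50 input reads, reached across the median.

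Late effectors, enzymes and secreted proteins of the activated state, held 1.45% of footprints and 1.12% of input, with 20 of 25 members above the median. Ptgs2, the inducible prostaglandin synthase, had 27678 footprints and 22909 input reads at 16 h, against 8 footprints and 19 input reads in untreated cells. It lay 1.29-fold above the median (1.27 to 1.32). Acod1, which makes itaconate, had 25441 footprints and 21623 input reads and lay 1.26-fold above. Hmox1, the inducible heme oxygenase, was 2.84-fold above (2.70 to 2.98), and Nos2, the inducible nitric oxide synthase, had 1695 footprints and 849 input reads with a log2 density of 1.09. Cybb, the catalytic subunit of the phagocyte oxidase, was 1.19-fold above. C3, a complement protein with a long coding region, lay 1.30-fold below, with an interval that reached across the median.

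**Figure D2:**
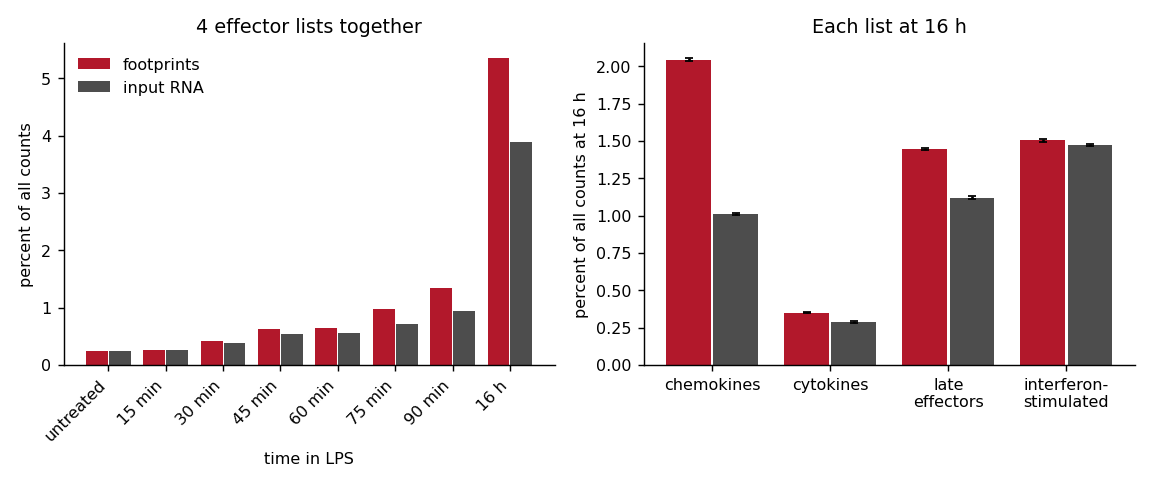
Percent of all counts taken by effector mRNAs, footprints in red and input RNA in grey, 1 library each. The left panel shows the 4 lists together by time in LPS, 5.35% of footprints and 3.89% of input at 16 h; the right panel shows each list at 16 h, where the bars of the chemokines differ most (2.04% and 1.01%) and those of the interferon-stimulated genes least (1.51% and 1.47%). Error bars on the right are 95% exact binomial intervals.

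Interferon-stimulated genes took almost equal shares, 1.51% of footprints (1.50 to 1.51) and 1.47% of input (1.46 to 1.48), although 39 of 50 members lay above the median. Isg15, a ubiquitin-like modifier, had 8308 footprints and 3101 input reads, 2.87-fold above the median (2.75 to 2.99). Ifi44 was 1.93-fold above. Oasl1, which in mouse is known to block translation of Irf7 mRNA through its 5′ untranslated region, had 7023 footprints and 5808 input reads at 16 h, against 125 footprints and 113 input reads in untreated cells, and lay 1.29-fold above. Irf7, Phf11d, Samd9l, Rnf213 and Mx1 were the 5 members at least 2-fold below (10% of the list, beside 15.2% of all members). Phf11d, Samd9l, Rnf213 and Mx1 were named after their values were seen, with log2 densities of -2.15, -1.74, -1.45 and -1.19.

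Irf7, the transcription factor that amplifies the type I interferon response, was the abundant mRNA with the fewest footprints for its input. It had 7, 19, 21, 13, 22, 24, 20 and 169 footprints in untreated cells, at 15, 30, 45, 60, 75 and 90 min and at 16 h, and 28, 24, 31, 32, 32, 35, 27 and 5300 input reads. The 16 h pair stood apart from all 7 earlier pairs: footprints at 16 h were 24.1 times those in untreated cells (11.5 to 61.0) and input was 189 times (131 to 285). At 16 h the density of Irf7 lay 29.2-fold below the median member (25.2 to 34.4). Against the mean of the earlier times it fell by 4.31 ± 0.26 on the log2 scale (SE; adjusted p = 4.6e-08 from edgeR's quasi-likelihood test, Benjamini-Hochberg over 9529 genes). Its 5′ untranslated region of 500 nucleotides in the annotated transcript held 0 upstream ATG triplets.

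The broader set of induced mRNAs also held a larger share of footprints than of input. The input of 246 members (2.88%) was at least 8-fold above untreated input, with untreated counts under 3 set to 3. They held 10.5% of footprints and 8.03% of input at 16 h, and 0.345% of footprints and 0.321% of input in untreated cells. At least 2-fold above the median were 13.0% of them, beside 7.65% of all members, and at least 2-fold below were 9.35%, beside 15.2%. Only 77 of the 246 were in the 4 effector lists. Together the 246 had 702884 footprints and 538070 input reads, and their median log2 density was 0.29. Spp1 and Ccl3 (62142 footprints, 20426 input reads) made up most of the difference between these totals. Others, such as Odc1 (26923 footprints, 74436 input reads), went the other way. Spp1, which encodes the secreted matrix protein osteopontin, took the most footprints of any gene. It had 186251 footprints and 90210 input reads at 16 h, against 3387 footprints and 1269 input reads in untreated cells. That was 2.78% of footprints (2.77 to 2.79) and 1.35% of input (1.34 to 1.35), a density 2.21-fold above the median (2.19 to 2.23). Per kilobase of coding region, Ccl3 with 222731 footprints stood above Spp1 with 210453, followed by Ccl4 with 100122, Actb with 79539 and B2m with 59961.

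Among the 20 genes with the most footprints, constitutive mRNAs were mixed with induced ones. Actb, cytoplasmic actin, had 89720 footprints and 41755 input reads, 2.30-fold above the median. Eef1a1, the elongation factor that delivers aminoacyl-tRNA, had 67248 footprints and 125686 input reads, 1.75-fold below. Pkm of glycolysis was 1.57-fold above, and Hspa5, the main chaperone of the endoplasmic reticulum, 1.43-fold above. Hspa8 was at the median (1.01-fold below, 0.990 to 1.02). Of the coding 29-mers, 52.5% in Actb, 11% in Eef1a1, 18.4% in Pkm and 4.76% in Hspa8 matched no other annotated gene, so their counts are uncertain where the counting split or dropped shared reads. The 10 genes with the most counts in each library held 9.22% of footprints and 9.40% of input, and the top 1000 held 61.5% and 58.5%.

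The most abundant 10% of members were 856 genes with at least 1473 input reads. Of these, 140 (16.4%) lay at least 2-fold below the median and 73 (8.53%) at least 2-fold above; 32 lay at least 4-fold below, 13 of them at least 8-fold, and only Ywhae lay at least 4-fold above. The 13 mRNAs encoded in the mitochondrial genome all lay below the median, and 11 of them (84.6%) at least 2-fold, beside 15.2% of all members. They are translated inside mitochondria by mitochondrial ribosomes. How well the monosome fraction recovered these ribosomes was not tested, so the density of these 13 need not measure the ribosomes on them. Together they held 0.341% of footprints and 2.98% of input, with a median 7.53-fold below that of all members. The lowest, mt-Co3, had 1980 footprints and 26274 input reads (12.4-fold below), and mt-Co1 had 10103 footprints and 102718 input reads (9.51-fold below). For mt-Co3 0.132% and for mt-Co1 34.2% of coding 29-mers matched no other annotated gene.

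Fth1, the ferritin heavy chain, was also abundant with few footprints. From untreated cells over 15, 30, 45, 60, 75 and 90 min to 16 h it had 5599, 4306, 3334, 3369, 3186, 3871, 3730 and 5514 footprints, and 13532, 14264, 16605, 14542, 14582, 16321, 19977 and 56378 input reads. Footprints at 16 h were 0.985 times those in untreated cells (0.949 to 1.02), and input was 4.17 times (4.09 to 4.25). The 16 h density was the lowest of the 8 and lay 9.56-fold below the median (9.30 to 9.83). The change against 0 to 90 min was a fall by 1.40 ± 0.26 on the log2 scale (SE; edgeR's quasi-likelihood test, adjusted p = 0.017). Ftl1, the ferritin light chain, whose hairpin is printed above, had 12 footprints and 286 input reads, 21.4-fold below the median (12.6 to 43.6); only 4.20% of its coding 29-mers were unique, so its counts are uncertain. Slc11a2, an iron transporter, and Tfrc, the transferrin receptor, carry the element in the 3′ untranslated region, where it is known to act on mRNA stability; they lay 1.31-fold below and 1.38-fold above. The 5 members together held 0.183% of footprints and 0.945% of input.

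Other abundant mRNAs with few footprints were Slfn4, Cdh11, Dst, Atp13a3 and Usp34. Slfn4, a Schlafen family gene induced by interferon in macrophages, had 1117 footprints and 11300 input reads at 16 h, against 25 footprints and 406 input reads in untreated cells. It lay 9.45-fold below the median (8.89 to 10.1), and its 5′ untranslated region held 14 upstream ATG triplets. Of its coding 29-mers 54% were unique, so its counts are uncertain. Cdh11, a cadherin of mesenchymal cells, had 147 footprints and 1635 input reads, 10.4-fold below, and held 10 upstream ATG triplets. Dst, a giant cytoskeletal linker, had 270 footprints and 2627 input reads, 9.08-fold below. Atp13a3, a polyamine transporter, and Usp34, a deubiquitinase, were 7.79-fold and 7.66-fold below. Atp13a3 held only 1 upstream ATG triplet. RP23-92G13.4 and RP23-185A18.9, which the annotation used here did not match, were 14.8-fold and 9.92-fold below. Among all members with at least 100 input reads the lowest was Map3k10, a mixed-lineage kinase, with 1 footprint and 115 input reads (72.0-fold below, 18.9 to 4283).

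The 15 abundant mRNAs with the most footprints for their input had coding regions of 135 to 1734 nucleotides. Ywhae, a 14-3-3 adaptor protein, had 10105 footprints and 2535 input reads, 4.26-fold above the median (4.08 to 4.46). Eif5a, which helps ribosomes through stretches that are hard to elongate, had 13764 footprints and 4065 input reads, 3.62-fold above. B2m, the light chain of MHC class I, had 21586 footprints and 7140 input reads, 3.23-fold above, and Cd74, the invariant chain of MHC class II, had 9043 footprints and 3229 input reads. Of genes that act on the actin cytoskeleton, Arhgdia, Msn, Tmsb4x, Arhgdib and Cfl1 lay 3.47-fold, 3.38-fold, 3.35-fold, 3.18-fold and 3.06-fold above. Mif, a cytokine held in store by macrophages, was 3.24-fold above, with 8.13% of its coding 29-mers unique. Among all members with at least 100 input reads the highest were Atp6v0c, a subunit of the vacuolar proton pump, with 3456 footprints and 272 input reads (13.6-fold above), S100a11 with 5785 and 475 (13.0-fold), and Fkbp1a with 1509 and 125 (12.9-fold). For Atp6v0c 6.82% and for S100a11 11.2% of coding 29-mers were unique, against 81.3% for Fkbp1a.

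By function, replication-dependent histones and oxidative phosphorylation stood highest outside the effector lists. The 34 replication-dependent histones had a median 2.10-fold above that of all members. At least 2-fold above were 20 (58.8%), beside 7.65% of all members. Their mRNAs lack a poly(A) tail and many are near copies of each other, so values of single histone genes are uncertain. The 77 nuclear-encoded subunits of oxidative phosphorylation had a median 1.86-fold above. Of these, 30 (39.0%) lay at least 2-fold above, beside the same 7.65%, and none below by that much. Uqcrq, a subunit of complex III, was the highest of them with 2346 footprints and 351 input reads (7.14-fold above). The 27 actin cytoskeleton genes had a median 1.75-fold above, with 11 (40.7%) at least 2-fold above, beside 7.65%. Of the 27, only Flna, a large actin crosslinker, lay at least 2-fold below. The lists were not matched for coding length. Of all members with the shortest coding regions (114 to 774 nucleotides), 25.5% lay at least 2-fold above. Proteasome subunits (31 members, median 1.51-fold above), initiation factors (30, 1.45-fold), lysosomal proteins (27, 1.42-fold), glycolysis (19, 1.42-fold) and cholesterol synthesis (22, 1.41-fold) followed. Cell cycle genes (33, 1.36-fold), ATF4 targets (18, 1.32-fold), antigen presentation (18, 1.28-fold), feedback regulators of NF-kB (25, 1.22-fold), chaperones of the endoplasmic reticulum (22, 1.22-fold) and aminoacyl-tRNA synthetases (20, 1.16-fold) were nearer the median. Antigen presentation genes held 0.717% of footprints and 0.367% of input, with B2m and Cd74 at least 2-fold above and Nlrc5, the activator of MHC class I genes, 3.87-fold below (176 footprints, 730 input reads). Among feedback regulators, Zfp36, which marks cytokine mRNAs for decay, had 3155 footprints and 1206 input reads (2.80-fold above), and Nfkbia, the inhibitor IkB alpha, was 1.60-fold above.

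**Figure D3:**
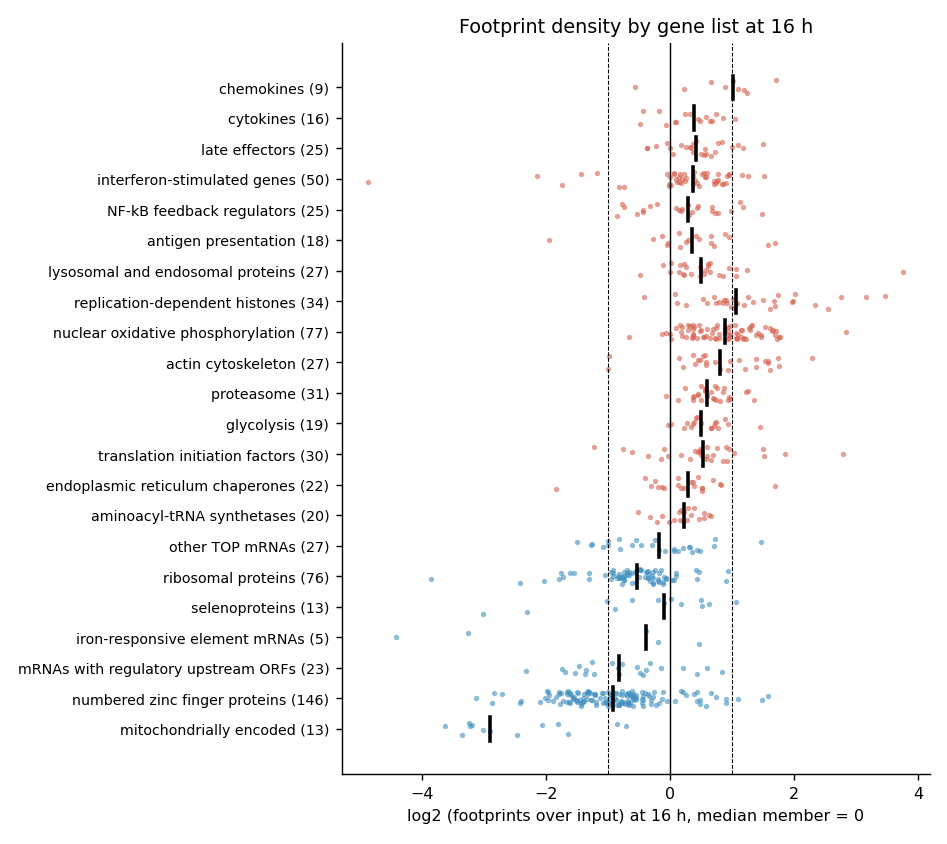
Log2 density at 16 h (footprints over input, median member at 0) by gene list, 1 point per gene, with the number of members in brackets; black bars are list medians and dashed lines mark 2-fold. Chemokines and replication-dependent histones have medians near the upper dashed line, and the mitochondrially encoded genes have theirs at -2.91.

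Ribosomal proteins, other TOP mRNAs, mRNAs with regulatory upstream frames, iron-responsive element mRNAs, selenoproteins, zinc finger genes and mitochondrially encoded genes were lists with a median below that of all members. The 76 ribosomal protein genes had a median 1.45-fold below that of all members, with 67 below the median. At least 2-fold below were 11 (14.5%), beside 15.2% of all members. Ribosomal protein mRNAs begin with a 5′ terminal oligopyrimidine (TOP) tract, through which the kinase mTORC1 is known to control their translation. They held 5.00% of footprints and 8.30% of input at 16 h. Over the 8 times in order their share of footprints was 6.58%, 8.20%, 9.34%, 9.38%, 9.68%, 9.75%, 9.71% and 5.00%, and their share of input 9.88%, 9.32%, 8.25%, 8.65%, 8.64%, 8.53%, 8.22% and 8.30%. The median log2 density of the list was -0.39 in untreated cells, 0.12 at 15 min, 0.52 at 30 min, 0.43 at 45 min, 0.46 at 60 min, 0.49 at 75 min, 0.57 at 90 min and -0.53 at 16 h, so the 16 h value lay near the untreated one and below those of 15 to 90 min. The 27 other TOP mRNAs, mostly elongation and initiation factors, had a median of -0.18 at 16 h and held 2.83% of footprints and 4.25% of input. Among them Eef2 and Pabpc1 lay 2.39-fold and 2.83-fold below the median, and Btf3 2.77-fold above.

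A list written for upstream reading frames of known regulatory function held 0.745% of footprints and 1.76% of input. It also holds Oaz1, an antizyme whose main product needs a frameshift. Some members, such as Cebpb and Hsd17b7, had 0 upstream ATG triplets in the annotated transcript. Of 23, 19 lay below the median and 9 (39.1%) at least 2-fold below, beside 15.2% of all members. None lay at least 2-fold above, beside 7.65% of all members. Odc1 had 26923 footprints and 74436 input reads at 16 h, against 2178 footprints and 5186 input reads in untreated cells, 2.58-fold below the median (2.55 to 2.62), with 16.3% of its coding 29-mers unique. Azin1, the antizyme inhibitor that shields ornithine decarboxylase, lay 2.89-fold below and Sat1 2.39-fold below. Atf4 lay 1.71-fold below (1.64 to 1.79), and Ppp1r15a, the phosphatase subunit that reverses the stress signal to initiation, 4.99-fold below (4.27 to 5.89). Mycn was the highest, 1.78-fold above. Selenoproteins, which read a stop codon as selenocysteine, had 13 members with a median 1.07-fold below; Sephs2, which makes the selenium donor, had 119 footprints and 1041 input reads (8.15-fold below). Numbered zinc finger genes had 146 members with a median 1.90-fold below, and 66 (45.2%) lay at least 2-fold below, beside 15.2% of all members.

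Density went with coding length and with upstream ATG triplets, neither of which was used to choose the members. By annotated coding length, in 5 bins of about equal gene number, the median log2 density was 0.62 for 114 to 774 nucleotides, 0.26 for 777 to 1194, 0.02 for 1197 to 1680, -0.22 for 1683 to 2565 and -0.65 for 2568 to 26400. Across genes Spearman's rho of density was -0.52 with coding length, -0.15 with the length of the 5′ untranslated region and -0.12 with that of the 3′ untranslated region, as a description of 1 pair of libraries. With 0, 1 and 2 upstream ATG triplets the median log2 density was 0.21, -0.08 and -0.30, with 3 to 4 it was -0.43, with 5 to 9 -0.58 and with 10 or more -0.65. The percentage of genes at least 2-fold below the median was 7.02% with none and 39.1% with 10 or more. Within each of the 5 bins, genes with an upstream ATG had a lower median, by 0.17, 0.26, 0.35, 0.45 and 0.47 from the shortest to the longest. Of genes at least 2-fold above the median 34.3% had an upstream ATG and 94.0% a purine 3 bases before the start codon, and of genes at least 2-fold below 76.4% and 83.0%. The features used for counting were not given in the sources used here; footprints lie mainly in coding regions and input reads along the whole mRNA, and the part of this in the order by length was not tested.

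**Figure D4:**
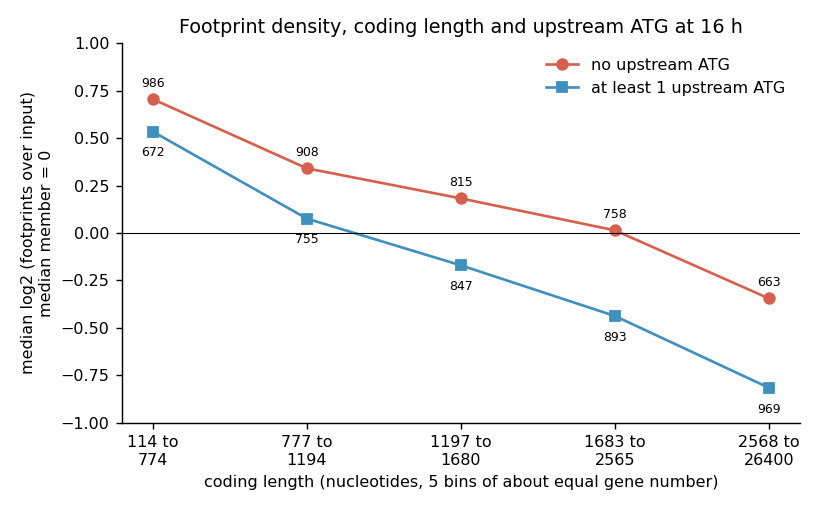
Median log2 density at 16 h (vertical axis, median member at 0) by bin of coding length in nucleotides (horizontal axis), for genes with no upstream ATG (red circles) and with at least 1 (blue squares); the number of genes stands beside each point. Both lines descend from the shortest to the longest coding regions, and the blue line lies below the red one by 0.17 to 0.47.

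Which genes had few or many footprints at 16 h was largely shared with untreated cells. Among the 8107 genes with at least 50 counts in both inputs, 1251 lay at least 2-fold below the median at 16 h and 1294 in untreated cells, with 1012 in both (80.9% of the 16 h list and 78.2% of the untreated list). At least 2-fold above were 596 at 16 h and 777 in untreated cells, with 497 in both (83.4% and 64.0%). No gene was 2-fold above at one time and 2-fold below at the other.

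The density at 16 h was then tested against the mean of the 7 earlier pairs, with all 16 libraries in the fit. The 16 h arm was 1 pair, assumed to vary like the earlier pairs, whose spread also holds any change over 0 to 90 min, so a call is a difference from that spread and has no replicate at 16 h. Of 9529 genes tested, 48 rose (0.504%) and 11 fell (0.115%) at an adjusted p under 0.05; 47 of the rises and all 11 falls were members. At an unadjusted p under 0.05 the counts were 807 and 289. Of the 47 members that rose, 42 still lay below the median at 16 h, 25 of them at least 2-fold, and 34 of the 43 with an annotated 5′ untranslated region had an upstream ATG, beside 50.0% of all members with such an annotation and 76.4% of those at least 2-fold below the median. All 11 members that fell lay below the median at 16 h. Without the untreated pair 53 genes rose and 170 fell, and without the 60 min pair 31 rose and 9 fell. Without the time point as a block the counts were 4 and 2.

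The largest rise was that of Ucp2, a carrier of the inner mitochondrial membrane whose translation is known to be controlled through an upstream reading frame. Over the 8 times it had 381, 519, 340, 409, 382, 425, 334 and 1291 footprints, and 1407, 1555, 1696, 1354, 1392, 1467, 1640 and 1295 input reads. Footprints were higher at 16 h than in all 7 earlier libraries and input lower, and density rose by 1.84 ± 0.19 on the log2 scale (SE; edgeR's quasi-likelihood test, adjusted p = 8.8e-05). Pla2g5, a secreted phospholipase with 8 upstream ATG triplets, had 451 footprints and 621 input reads at 16 h, and 17 to 41 footprints and 79 to 181 input reads before, a rise of 1.64 ± 0.19 (edgeR adjusted p = 0.00026). Cd81, a tetraspanin, had 247 footprints and 234 input reads at 16 h against 219 and 483 in untreated cells, a rise of 1.27 ± 0.17 (edgeR adjusted p = 0.0013). Dst and Cdh11 rose by 1.60 and 1.05 while remaining more than 9-fold below the median.

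Stress mRNAs with upstream reading frames were among the rises. Atf4 had 3100 footprints and 5674 input reads at 16 h, against 635 and 3158 in untreated cells. Its ratio of footprints to input was 0.546 at 16 h and between 0.182 and 0.278 in the 7 earlier pairs, and density rose by 1.20 ± 0.18 (edgeR adjusted p = 0.0043). Ppp1r15a had 185 footprints and 990 input reads at 16 h, against 6 and 109 in untreated cells. Its ratio was 0.187 at 16 h and between 0.0495 and 0.0884 before, including 30 and 45 min, when it had 208 and 242 footprints and 4200 and 4620 input reads; density rose by 1.63 ± 0.18 (edgeR adjusted p = 0.00022). Oaz1, the antizyme that needs a frameshift for its main product, rose by 0.72 (edgeR adjusted p = 0.043), with 8.69% of its coding 29-mers unique; it did not pass without the untreated, 45, 60 or 75 min pair. The list of mRNAs with regulatory upstream frames, which holds Oaz1 but not Ucp2, had a median log2 change of 0.23 over its 22 tested members. Atf5, a relative of Atf4, had a change of 1.15 but did not pass the threshold, so it is not among the rises. Slc7a11, the cystine transporter and the only riser of the effector lists, had a rise of 0.90 (edgeR adjusted p = 0.023). Txnrd1, a selenoprotein that reduces thioredoxin, rose by 0.71 (edgeR adjusted p = 0.011), and Nlrc5 by 1.01 (edgeR adjusted p = 0.026, and 0.064 in the DESeq2 Wald test).

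**Figure D5:**
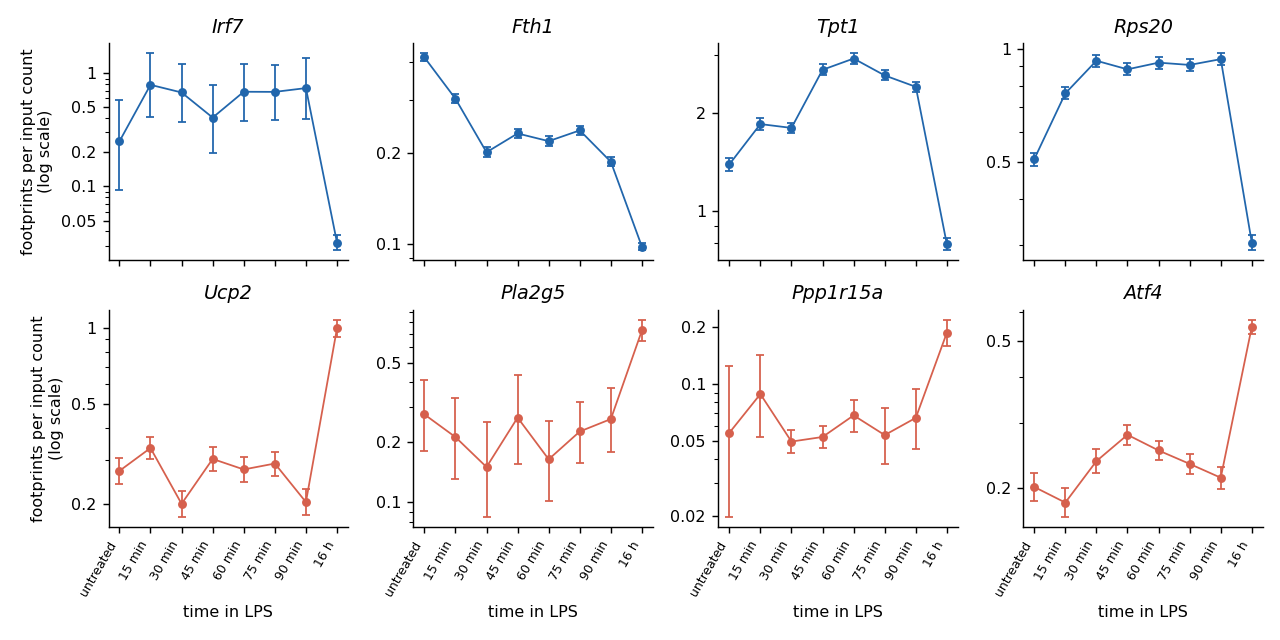
Footprints per input count (vertical axes, log scale, own range per gene) by time in LPS for 8 genes whose density changed at 16 h, 4 that fell in blue and 4 that rose in red; points are single pairs of libraries and bars 95% exact binomial intervals for counting error. Irf7 has 0.0319 at 16 h, below all its earlier intervals, and Ucp2 has 0.997 at 16 h, above its 7 earlier values.

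Besides Irf7 and Fth1, the falls included TOP mRNAs. Tpt1, a growth-related protein, had 4961 footprints and 3569 input reads in untreated cells, 10872 and 4538 at 90 min and 3896 and 4911 at 16 h, a fall by 1.52 ± 0.30 (edgeR adjusted p = 0.026) that did not pass the DESeq2 Wald test (adjusted p = 0.067). Rps20, of the small ribosomal subunit, had 3629 footprints and 7128 input reads in untreated cells, 5590 and 5942 at 90 min and 2357 and 7733 at 16 h, a fall by 1.50 ± 0.27 (edgeR adjusted p = 0.015). Rps16 fell by 1.16 (edgeR adjusted p = 0.046), and did not pass without the 30, 45, 60, 75 or 90 min pair. None of the coding 29-mers of Tpt1 and Rps16 and 4.22% of those of Rps20 were unique, so their counts are uncertain. Rps20 and Rps16 were the 2 of 76 ribosomal protein genes that passed the test, and the median change of the tested list was -0.81. Without the untreated pair 67 of them passed with a fall, and against 45 to 90 min alone 71 of 76, while with the time block left out none passed. Among other TOP mRNAs 1 of 27 passed, and 21 passed without the untreated pair. Ercc1, a DNA repair endonuclease subunit, had 61 footprints and 247 input reads at 16 h against 49 and 57 in untreated cells, a fall by 1.90 ± 0.28 (edgeR adjusted p = 0.0031). Wsb1, a substrate receptor of a ubiquitin ligase, had 379 footprints and 894 input reads against 615 and 731, a fall by 1.01 ± 0.13 (edgeR adjusted p = 0.00065).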

How the data were processed

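Whole-number counts per gene and a DESeq2-normalised signal were deposited by the authors for 16 libraries, per the file headers; the signal was each count divided by 1 factor per library and was used only for a check. Bowtie 0.12.8, DESeq2 1.18.1 and mm10 come from the submitters' processing notes. The features counted, strand, reads with several matches and the step that gave equal totals were not given in the sources used here; if counts were scaled up to that total, the intervals are too narrow. Density at 16 h was log2 of (footprints + 0.5) over (input + 0.5), centred on the median of genes with at least 50 input counts.

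Change of density was tested with edgeR 4.0.16 (R 4.3.3; quasi-likelihood, TMM, Benjamini-Hochberg, threshold 0.05) on genes with 10 counts or more in 4 libraries or more of each material, with time point as a block, since the labels' protocols take both libraries of a time from 1 lysate; 6 residual degrees of freedom remained, and the lone 16 h pair was assumed to vary like the others. The script was tested on simulated data. Alternatives are in the closing section.

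Members and lists were chosen with earlier results of these data known. Named genes are those with the most footprints, the lowest and highest densities (all and abundant), the extremes of each list, the largest changes, and any cytokine, chemokine, iron or upstream-frame gene; Nos2, Slc7a11, Phf11d, Samd9l, Rnf213, Mx1 and the other-cell markers fall outside that rule and were named after their values were seen. GENCODE M21 matched 13146 of 13832 symbols and gave lengths, sequences and the share of coding 29-mers found in no other gene.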

Additional observations from a re-analysis of the deposited data

How the results depend on the processing

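With at least 200 input counts 380 genes lay 2-fold above the median member, and with at least 1 count 1166 above and 2368 below; at 4-fold the counts were 45 and 241. The effector share was 5.37% of footprints and 4.01% of input without mitochondrially encoded genes, 5.38% and 3.91% over members alone, and 5.50% and 3.95% without Spp1. Neither Spp1 nor the mitochondrially encoded genes were in the 4 lists, so leaving them out changed only the totals. No alternative left out Ccl3, the effector with the most footprints, so the weight of single effector genes was not tested. Induced mRNAs held 13.6% of footprints and 12.0% of input at 4-fold induction (443 genes), 8.14% and 5.22% at 16-fold (153 genes), and 10.2% and 7.94% with induction taken from footprints (255 genes). Footprints held the larger share in each of these alternatives. For the change of density, the replicate block was the time point: 48 genes rose and 11 fell with it, and 4 and 2 with no replicate block, all 6 among the 59. No filter on low counts gave 84 and 34, the DESeq2 Wald test 41 and 25, and 45 to 90 min alone 156 falls. Leaving out 1 pair at a time gave 31 to 53 rises and 9 to 170 falls, the last without the untreated pair. Irf7, Ucp2, Dst, Cd81, Ercc1 and Tmem184c passed in all 14 alternatives. Atf4, Ppp1r15a, Pla2g5 and Fth1 lost their call only with no replicate block (edgeR adjusted p of 0.92, 1.0, 0.55 and 0.27), as did Cdh11, Rps20, Wsb1, Txnrd1 and Slc7a11; Tpt1 and Nlrc5 lost theirs there (0.56 and 0.34) and in the DESeq2 Wald test (0.067 and 0.064), Rps16 in 7 alternatives and Oaz1 in 6. The cause of these differences was not tested. Equal totals hide the original depth, so what depth limits cannot be told.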
